A study of Sus scrofa with 10 samples.

Results

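Cytosolic ribosomal proteins were taken as every array feature whose annotated gene symbol began with RPL or RPS and a digit, apart from the RPS6K kinases, and 187 of 45220 features met this. They read 36 of the 4560 genes with a symbol, of which 17 encode proteins of the 60S subunit, 16 encode proteins of the 40S subunit and 3 (RPL7L1, RPL26L1 and RPL36AL) are paralogs of 60S genes. The rule reads symbols only. Oviductal tissue of the ampullary-isthmic junction, the site of fertilization in pigs, came from 5 inseminated and 5 non-inseminated sows, all of them cyclic commercial hybrids of Landrace and Large White that had been weaned together and entered oestrus naturally, without any hormonal treatment. The 5 inseminated animals received fresh diluted boar semen at the cervix during standing oestrus, the other 5 received none, and the oviducts of both groups were removed once ovulation had been seen by ultrasound. RNA of the whole wall with its unflushed content was labelled with Cy3 and hybridized to 1 single-colour porcine array per sow, and ages were not given in the sources used here. Sows are named as in the labels, where the prefix AI was given to every animal of both groups.

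Ribosomal proteins coat and fold the ribosomal RNA of both subunits, the small one decoding the messenger and the large one joining amino acids into the chain. Their genes are transcribed in every cell that makes protein, and their messengers share a 5' terminal oligopyrimidine tract through which the TOR pathway adjusts their translation. For that reason several of them, RPL32, RPS18, RPL19, RPL4 and RPL13A among them, have served as reference genes in many tissues, and RPL4 and RPL13A were not analysed here.

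The values are log2 intensities, background-corrected and quantile-normalized by the authors, and the value of a gene is the mean over its features. A level is the brightness of a feature and not the amount of its transcript, so that levels of different genes were not compared as amounts, and hybridization does not separate transcripts of near-identical copies or processed pseudogenes. The sorted values of the 10 arrays differed by at most 0.054, the middle of all values was 7.087 and the ceiling was 16. All 9 measured secretory markers lay above the array median, with the oviduct glycoprotein OVGP1 at 15.95, and so did the 3 measured ciliated and the 4 measured smooth muscle markers. FOXJ1 and PAX8, defining transcription factors of the ciliated and secretory cells, were not among the measured genes. Sow AI1061 stood apart over all genes, being the lowest sow in 31.3% of them and the highest in 18.6%. Its markers deviated from the mean over sows by a median of -0.56 for secretory cells, -1.11 for ciliated cells, 0.50 for smooth muscle and 0.77 for stroma. Since whole tissue was used, fewer cells of a type and less RNA per cell cannot be told apart.

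Most ribosomal protein features were bright in every sow. Their mean levels ran from 6.65 to 15.94, and in 58 of the 187 features (31.0%) one or more sows came within 0.1 of that ceiling, against 0.816% of all features. Differences are compressed there. These 58 features belonged to 20 of the 36 genes, and 1 of them, a feature of RPS20, lay within 0.1 of 16 in all 10 sows. RPS20, a protein of the 40S head, was affected in each of its 7 features, and RPL5 in 9 of 18, RPL7 in 8 of 16 and RPS3A in 5 of 9. RPL19, RPL8 and RPL35, all of the 60S subunit, were each read by a single feature of this kind. None of the 14 features of RPS4X and none of the 9 of RPL10A came within 0.1 of 16. At the other end, 6 features of RPS16, RPS23, RPS26, RPS28 and RPS29 had a mean below the array median although other features of the same genes were bright. In RPS28 the features ran from 6.65 to 15.93 and in RPS29 from 6.65 to 15.89.

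**Figure D1:**
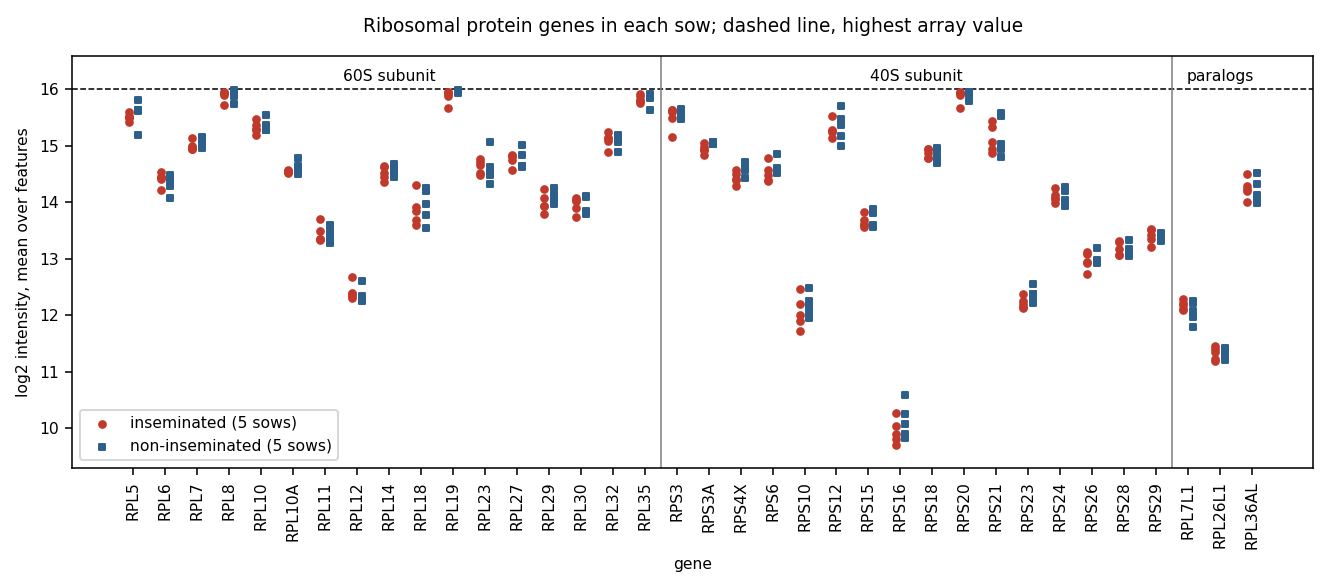
Log2 intensity of the 36 ribosomal protein genes (vertical axis, mean over features) in each of the 10 sows, grouped as 60S, 40S and paralogs, with 5 inseminated sows as red circles and 5 non-inseminated sows as blue squares. The dashed line is the highest array value, 16, and the circles and squares of each gene overlap.

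No ribosomal protein transcript differed by insemination past the threshold. With limma, 0 of 36 genes had an adjusted p under 0.05 over all 4560 genes, where 0.0% of all genes did, and 0 had an unadjusted p under 0.05, where 2.59% of all genes did. The smallest unadjusted p of a member was 0.0934, with an adjusted p of 0.999 in limma. limma draws the variance of each gene toward that of all genes. Its moderated standard errors and p are therefore larger in genes of small spread, as many members are, than their own sow values alone would give. The share under 0.05 in members and in all genes is compared with that limit. In 0 of the 36 genes did the groups fail to overlap, against 0.241% of all genes higher and 0.219% lower without overlap. In mean, 14 genes were higher and 22 lower in inseminated sows, where 46.8% of all genes were higher and 53.2% lower. The median difference over the 36 genes, inseminated minus non-inseminated, was -0.04 on the log2 scale, and over all genes it was -0.01. Differences ran from -0.18 in RPS16 to 0.12 in RPL7L1, and the 95% intervals of 35 of the 36 genes lay within 0.5 of 0, as did those of 66.7% of all genes. The interval of RPS16 alone reached further, to -0.54. In 21 of the 36 genes the interval stayed within 0.3 of 0.

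**Figure D2:**
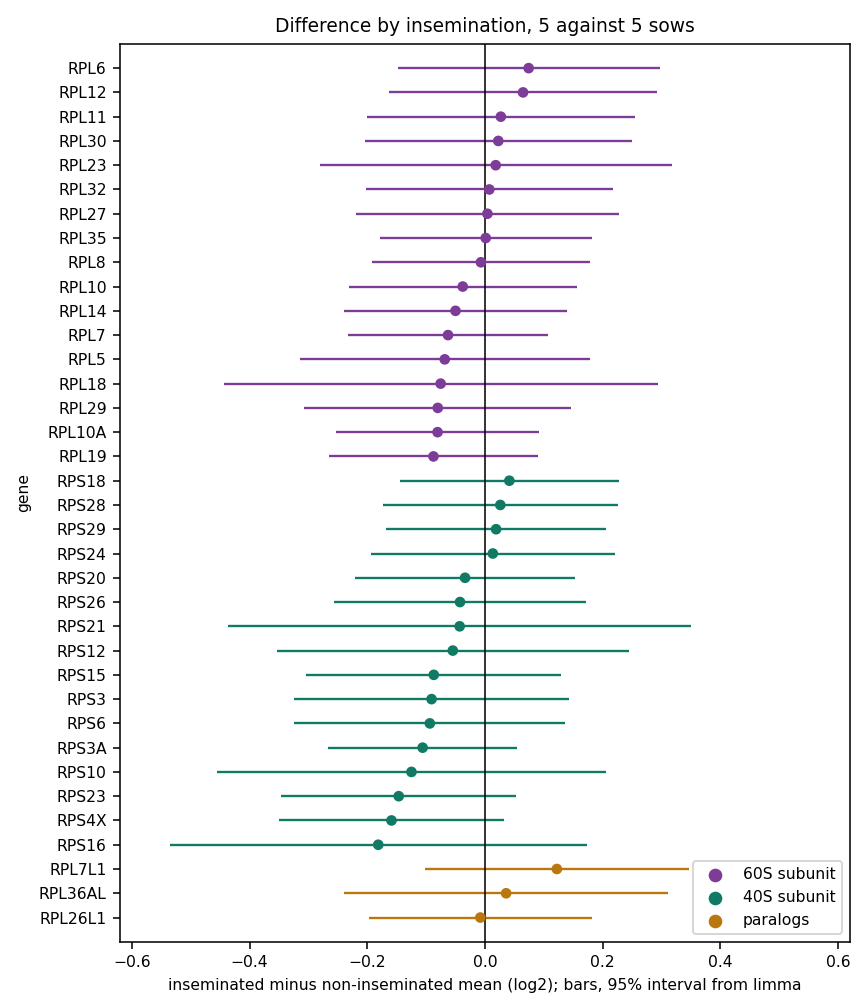
Difference of the 36 genes, inseminated minus non-inseminated mean on the log2 scale (horizontal axis), with 95% intervals from limma as bars and the subunit as colour, 5 sows against 5. Every interval holds 0, and the differences run from -0.18 to 0.12.

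In the 40S subunit, inseminated sows had the higher mean in 4 of the 16 proteins and the lower in 12, the median difference being -0.07, and 0 passed at an unadjusted p under 0.05. RPS4X, the copy of this 40S protein encoded on the X chromosome, was read by 14 features. Its level was 14.57, 14.50, 14.40, 14.41 and 14.29 in inseminated sows AI943, AI993, AI837, AI1059 and AI792 and 14.63, 14.44, 14.60, 14.71 and 14.58 in non-inseminated sows AI788, AI1061, AI991, AI696 and AI992. Apart from AI1061, the non-inseminated sows were all above the inseminated ones. The difference was -0.16 (standard error 0.09) with an unadjusted p of 0.0934 and an adjusted p of 0.999 in limma, and an exact permutation of the labels gave a two-sided p of 0.0397. All 14 features of RPS4X were lower in inseminated sows in mean, by -0.26 to -0.02. Features of 1 gene share the sows and are not replicates.

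RPS3A, another 40S protein, had the narrowest spread of all members. It lay at 15.05, 14.98, 14.85, 14.92 and 14.93 in inseminated sows, in the same order, and at 15.04, 15.04, 15.04, 15.07 and 15.07 in non-inseminated sows. The 5 non-inseminated sows were thus almost level and only AI943 of the other group reached them. The difference of RPS3A was -0.11 (moderated standard error 0.07, unadjusted p = 0.173 in limma). All 9 features had this sign and the exact permutation p was 0.0317, two-sided. When the median over features replaced the mean, that p was 0.198, and that of RPS4X was 0.0556.

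RPL19, a 60S protein that forms a bridge to the small subunit, was the third gene with a small permutation p. Its single feature lay at 15.67 in AI943 and at 15.89 to 15.95 in the other inseminated sows, and at 15.94 to 15.98 in non-inseminated sows, all of this within the compressed range. The difference was -0.09 (standard error 0.08) with an exact permutation p of 0.0397, which was 0.0635 without AI943. Altogether 3 of 36 members (8.33%) had a two-sided exact permutation p under 0.05, each lower in inseminated sows, where 3.38% of all genes had one and 1.67% were lower. The adjusted value over all genes was 1.0 in each, and none of the 3 passed. The count was 1 with the median over features and 2 without features near 16, where RPL19 has no value and was not tested. It was 0 without non-inseminated sow AI696 or AI992, 1 without AI788 and 4 without AI1061. The share of all genes at this exact p was not computed in these settings, so these counts have no background.

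RPS16, a 40S protein of the head near the P site, had the largest difference in mean of the 36 genes. Its values were 10.04, 9.81, 9.70, 10.28 and 9.90 in inseminated sows and 9.89, 10.59, 9.83, 10.07 and 10.26 in non-inseminated sows. The groups overlapped in most of their range and AI1061 was the highest of the 10 sows in all 3 features. The difference of -0.18 (standard error 0.16) was -0.07 without this sow. RPS23, which lies in the decoding centre, was at 12.38, 12.15, 12.20, 12.12 and 12.25 against 12.37, 12.55, 12.21, 12.33 and 12.38, again highest in AI1061. It differed by -0.15 (standard error 0.09; exact permutation p = 0.0952), and by -0.10 without AI1061. The dimmest of its 6 features, with a mean below the array median, read 7.89 in AI1061 and 6.05 to 7.03 in the other sows, and no difference is given for it.

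RPS10, a 40S protein mutated in some families with Diamond-Blackfan anaemia in humans, differed by -0.12 (standard error 0.15) and RPS6, the 40S protein that the S6 kinases phosphorylate, by -0.09 (standard error 0.10). Both were within the spread between sows, with exact permutation p of 0.421 and 0.365. Leaving out 1 sow moved RPS10 between -0.23 (without AI1059) and -0.04 (without AI837), and RPS6 between -0.16 (without AI1059) and -0.04 (without AI992). RPS18, of the 40S head, was among the 4 small-subunit genes with a higher mean, at 0.04 (standard error 0.08), and 0.0095 without AI788. It is one of the genes used elsewhere as a reference, and its 10 sows lay between 14.70 and 14.96.

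Of the 17 proteins of the 60S subunit 8 were higher and 9 lower, with a median difference of -0.0068, and 0 passed at an unadjusted p under 0.05. RPL6 was the highest of them in difference, at 0.07 (standard error 0.10), and 11 of its 13 features were higher in inseminated sows. Without AI788 the difference was 0.01. Its inseminated sows lay at 14.44, 14.54, 14.45, 14.23 and 14.41 and its non-inseminated sows at 14.08, 14.29, 14.43, 14.49 and 14.40, so that AI788 was lowest and the groups overlapped. RPL12, of the stalk base, differed by 0.06 (standard error 0.10), and this sign turned with the median over features and with the brightest feature. RPL32, a common reference gene, differed by 0.0074 (standard error 0.10) with a 95% interval from -0.20 to 0.22, and its sign turned under array weights and without single sows.

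RPL5 and RPL11 bind the 5S ribosomal RNA as a particle that enters the 60S subunit and, when free, holds the ubiquitin ligase MDM2. RPL5, the most often read of all members with 18 features, lay at 15.43, 15.49, 15.60, 15.52 and 15.51 in inseminated sows and at 15.63, 15.20, 15.64, 15.62 and 15.81 in non-inseminated sows. All non-inseminated sows but AI1061 were above every inseminated sow, and AI1061 was below all of them. The difference was -0.07 (standard error 0.11), -0.16 without AI1061 and -0.01 without AI992. RPL11 differed by 0.03 (standard error 0.10), a sign that turned when features near 16 were left out and without single sows. Over all 8 measured genes of the Diamond-Blackfan list, 5 were higher and 3 lower, with a median of 0.0088 and 0 at an unadjusted p under 0.05.

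The paralogs were 2 higher and 1 lower. RPL7L1, a nucleolar relative of RPL7 that takes part in the assembly of the large subunit, had the largest upward difference of the 36 genes. Its inseminated sows lay at 12.10, 12.30, 12.11, 12.19 and 12.22 and its non-inseminated sows at 12.22, 11.80, 12.08, 11.98 and 12.24. AI1061 and AI696 were the lowest sows, and AI1061 was the lowest in each of the 3 features. The difference was 0.12 (standard error 0.10; exact permutation p = 0.23) and 0.06 without AI1061. Its parent RPL7 differed by -0.06 (standard error 0.08), and the differences of the pair were not tested against each other. RPL36AL differed by 0.04 (standard error 0.12) and RPL26L1 by -0.0079 (standard error 0.09), and both signs turned without single sows.

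Single features did not pass the threshold either. Of the 187 features 58 were higher and 129 lower in inseminated sows in mean (of all features 50.3% and 49.7%), 0 reached a 2-fold difference (0.349% of all) and 0 had an unadjusted p under 0.05 in limma, where 3.37% of all features did. After adjustment over all features 0 passed, as in the whole table (0.0%). Features of 1 gene share the sows, and genes with many features weigh more in the counts by direction. RPS4X gave 14 of the 129 lower features, RPL5 15, RPL7 13 and RPS3A 9, while RPL6 gave 11 of the 58 higher ones. In 10 of the 31 genes read by several features (32.3%) every feature differed the same way, 2 higher and 8 lower, against 47.1% of the 2391 such genes of the array. Agreement of all features falls with their number, which is high in the members. Among genes with 4 to 6 features it was 2 of 12 members (16.7%) and 34.9% of 482 other genes, and among those with 7 or more it was 2 of 8 members (25.0%) and 28.8% of 170 other genes. With 3 features it was 4 of 8 members and 41.8% of 577 other genes. Sow by sow the features of RPL5 went together, since AI1061 was the lowest sow in 14 of its 18 and AI992 the highest in 11. In RPS26, which lines the exit channel of the messenger, AI837 was lowest in 4 of 4 features, in RPS12 AI788 was lowest in 5 of 6 and in RPS3A AI837 in 6 of 9. RPL7 with 16 features had no such sow, AI1061 being lowest in 5 and AI1059 highest in 6.

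**Figure D3:**
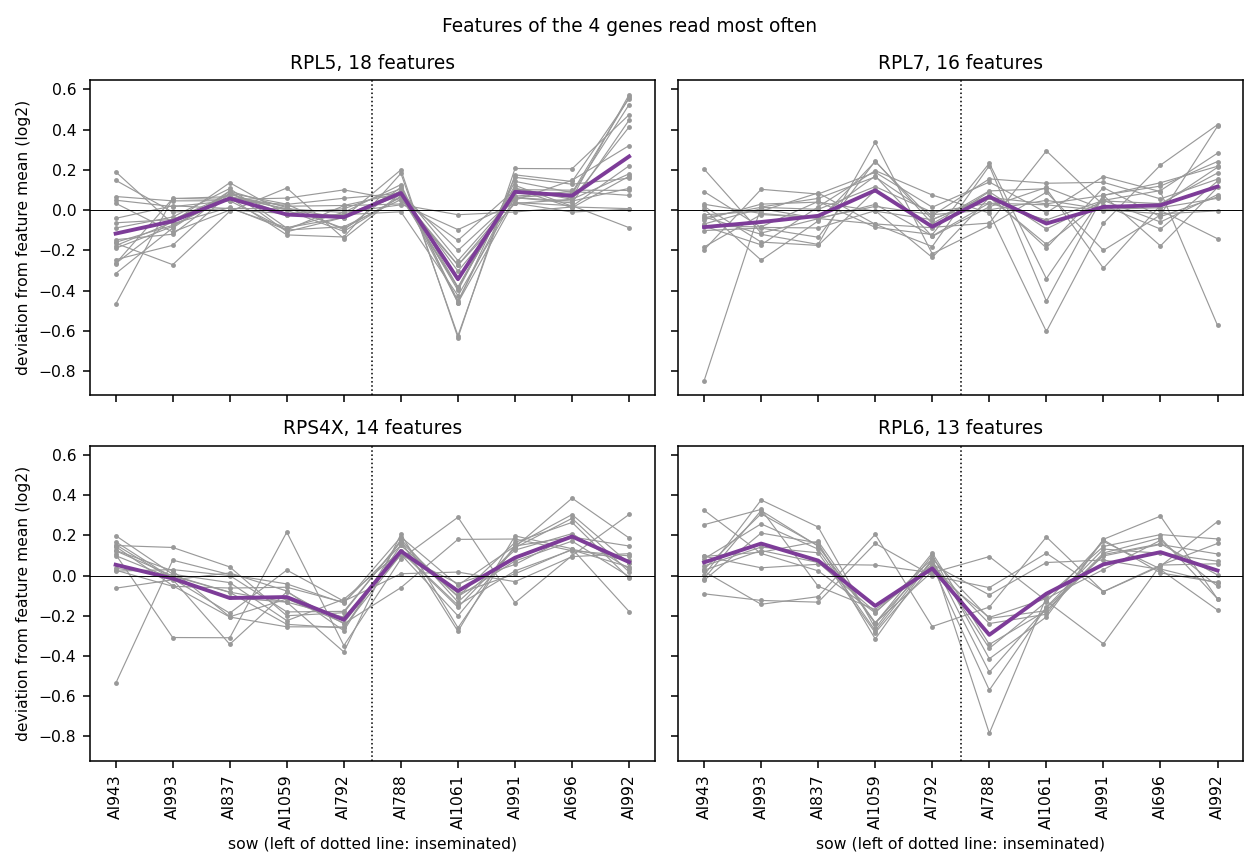
Deviation of each feature from its own mean over sows (vertical axis, log2) in the 4 genes with most features, RPL5, RPL7, RPS4X and RPL6, over the 10 sows (horizontal axis, inseminated left of the dotted line). Grey lines are features and the purple line is their mean, which for RPL5 is lowest in AI1061 and highest in AI992.

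Features of RPS10 disagreed within 1 sow. AI788 read 10.75 and 11.01 in the 2 dimmest of its 6 features, the highest of the 10 sows in both, and it was the lowest sow in 3 of the 4 brighter ones. Among the 58 features near 16, a sow lay more than 0.3 below the next in 11, which were 6 in AI943, 3 in AI1061 and 1 each in AI1059 and AI992. In a feature of RPS20, AI943 read 15.04 and the next sow 15.88, and in another AI1061 read 15.15 and the next sow 15.88. AI943 also read 15.05 in a feature of RPS3, a protein of the messenger entry channel, where the next sow read 15.75. Not every feature of RPS20 showed such a gap, since AI943 read 15.98 in another of the 7.

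The sow-to-sow spread was small in most members. It was taken as the SD within groups, pooled over both (5 sows each), and its median over the 36 genes was 0.132 on the log2 scale, against 0.225 over all genes. It lay under the median of all genes in 32 of 36 members, in the lowest 10% of genes in 15 (41.7%), and under 0.2 in 30 (83.3%), as in 41.3% of all genes. Compared with other genes of the same level the order held in 32 members. Between 14 and 15 the median SD was 0.132 over 12 members and 0.314 over 31 other genes, and between 13 and 14 it was 0.139 over 6 members and 0.350 over 66 others. Between 15 and 16, where values are compressed, it was 0.107 over 11 members and 0.137 over 23 others, and 7 of the 11 members lay below that. Features near 16 also enter members of lower mean level, so matching by level does not remove compression. Between 13 and 14 the SDs of RPS28, RPS29 and RPL11 were 0.113, 0.098 and 0.146. From their features with no sow near 16 they were 0.259, 0.148 and 0.209. RPL18, RPL30 and RPS15, of the same level, had no feature near 16. When features with any sow near 16 were left out, 32 members had a value, the median SD was 0.147 and 23 of the 32 lay under the median of all genes. Members had up to 18 features, and averaging over features lowers an SD. Over single features, without averaging, the median SD was 0.167 in the members and 0.226 in all features. The part due to averaging was not tested.

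Members with the smallest spread were RPS3A at 0.055, RPL7 at 0.072, RPL10A, of the mobile L1 stalk, at 0.077, RPL19 at 0.084 and RPL35, at the mouth of the exit tunnel, at 0.088. Compression near 16 enters several of these. RPL19 and RPL35 were each read by 1 feature near 16 and have no value without it, while from the features with no sow near 16 the SD of RPS3A was 0.084 (4 of 9 features) and that of RPL7 0.128 (8 of 16). No feature of RPL10A was near 16. RPL10A held its inseminated sows between 14.53 and 14.57, and the non-inseminated sows ran from 14.49 in AI1061 to 14.78 in AI992. At the other end stood RPS21 at 0.305, RPL18 at 0.282, RPS16 at 0.269, RPS10 at 0.247 and RPL23 at 0.218. RPS21, of the 40S subunit, was at 15.34, 15.07, 14.87, 15.44 and 14.95 in inseminated sows and at 14.95, 15.58, 14.80, 15.03 and 15.53 in non-inseminated sows, with AI1061, AI992 and AI1059 high in both RPS21 and RPL18. In RPL18, of the 60S subunit, AI1059 read 14.30, AI1061 14.25 and AI992 14.20, against 13.54 to 13.96 in the other 7 sows.

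**Figure D4:**
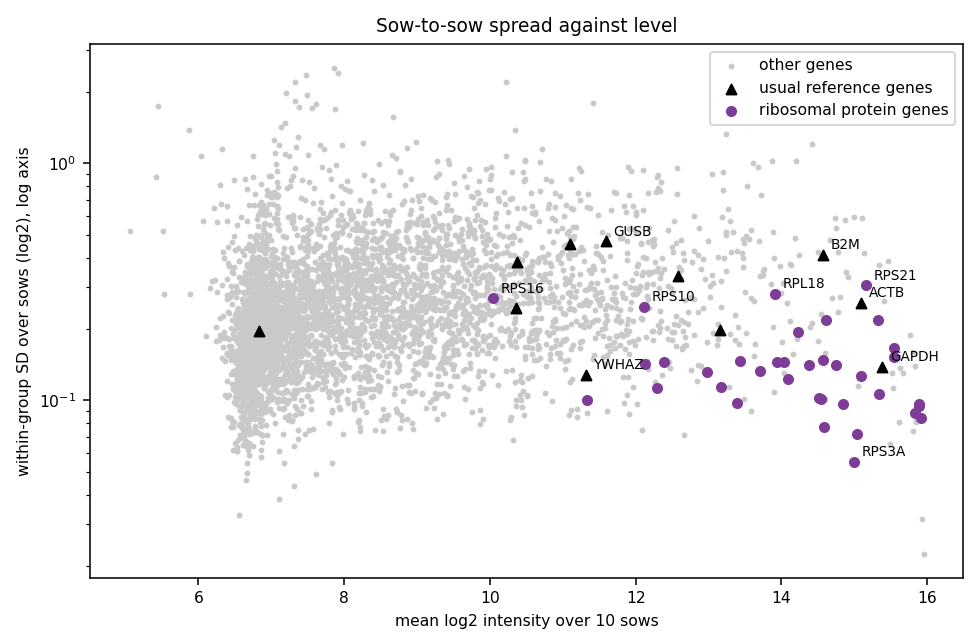
Within-group SD over sows (vertical axis, log2 units on a log axis) against mean log2 intensity over 10 sows (horizontal axis), with the 36 ribosomal protein genes in purple, 11 usual reference genes as black triangles and all other genes in grey. The purple points lie mostly low, from 0.055 to 0.305, while the triangles run from 0.128 to 0.468.

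Of the genes usually taken as references, 11 were measured, with a median SD of 0.257. GAPDH, a glycolytic enzyme, had 0.138 and YWHAZ, a 14-3-3 protein, 0.128, close to RPL32 at 0.126, and RPS18 had 0.096. ACTB, the cytoskeletal actin, had 0.257, B2M, the light chain of MHC class I, 0.410 and GUSB, a lysosomal enzyme, 0.468. By insemination B2M differed by 0.52 (standard error 0.23), TUBA1B, a tubulin, by -0.34, GUSB by 0.35 and PPIA, a cyclophilin, by -0.22, all beyond the range of the 36 ribosomal protein genes, and none passed in limma (adjusted p = 0.999 in each). In all, 5 of the 11 were outside that range, and the other 6, ACTB, GAPDH, SDHA, PGK1, YWHAZ and TFRC, lay inside it at -0.08 to -0.0061. Leaving out 1 sow moved B2M to 0.33 (without AI792) and GUSB to 0.19 (without AI788). An SD this size from 5 sows a group is itself imprecise, and no test of one SD against another was made.

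Over sows the members moved by little. The mean over the 36 genes was 14.14 ± 0.0703 in inseminated and 14.17 ± 0.0826 in non-inseminated sows (SD, n = 5 each), a difference of -0.03. It ran from 14.04 in AI837 to 14.29 in AI992, a range of 0.248. AI992 was above the mean of the sows in 33 of 36 genes and highest in 14 (38.9%, against 14.6% of all genes). AI837 was above that mean in 7 and lowest in 10 (27.8%, against 6.78% of all genes). AI1061 was highest in 10 (27.8%, against 18.6% of all genes) and lowest in 5 (13.9%, against 31.3%). It had the largest mean absolute deviation of the 10 sows over members, 0.161, as over all genes, 0.373. The other 9 sows, too, deviated less over members than over all genes. Without AI1061 20 of the 36 genes were lower in inseminated sows, the median difference was -0.03 and the median SD was 0.108.

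**Figure D5:**
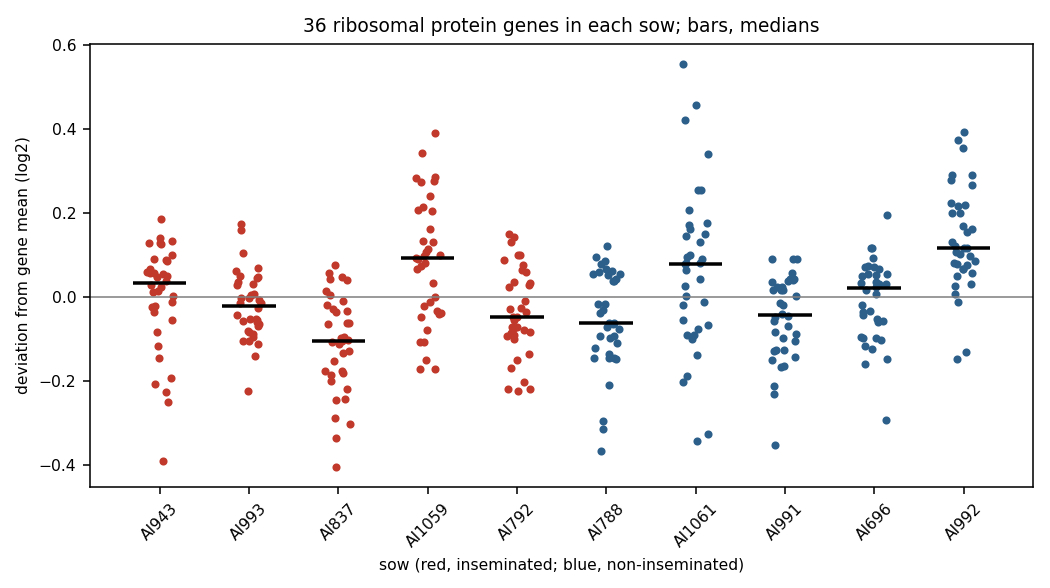
Deviation of each of the 36 genes from its mean over the 10 sows (vertical axis, log2) in each sow (horizontal axis), inseminated sows in red and non-inseminated sows in blue, with a bar at the median. AI992 lies highest with 33 genes above 0 and AI837 lowest with 7.

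The mean over members was set beside the mean of 6 marker lists in the 10 sows. Smooth muscle markers, 4 of 7 measured, ranged over 12.77 to 13.85 in inseminated and 12.01 to 14.22 in non-inseminated sows, with no marker at or below the array median, and went the opposite way to the members. Pearson's r was -0.67 (permutation p = 0.0361, adjusted 0.216 over the 6 lists) and Spearman's rho -0.72 (permutation p = 0.0232, adjusted 0.139). Without AI991 and AI992, the sows farthest from the median of the markers, r was -0.40, so that it rests in part on those sows. The other 5 lists had an adjusted permutation p of 0.43 or more. Their r also moved when the 2 farthest sows of each list were left out, from -0.46 to -0.77 for stroma, from 0.38 to 0.67 for leukocytes and from -0.21 to 0.56 for endothelium. What the tissue share contributes to the members' values was not tested.

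Genes around the ribosome were followed from lists chosen by symbol. Of the cytosolic ribosomal proteins outside the symbol rule, 3 of 8 were measured (RPLP1 of the stalk, RPSA and FAU), 2 higher and 1 lower, all within 0.03 of 0. Of 3 genes listed under elongation, the factor EEF1A1 and the kinase EEF2K, which acts on the factor EEF2, were lower and the EF1 subunit EEF1G was higher. EEF1G was at 0.09 (0.05 without AI943) and EEF2K at -0.21 (-0.36 without AI992 and -0.0065 without AI837). Of 9 initiation factors 3 were higher and 6 lower, with a median of -0.05, and EIF2B5, a subunit of the exchange factor for eIF2, differed by -0.21 (standard error 0.08; unadjusted p = 0.0279, adjusted p = 0.999 in limma). The cap-binding EIF4E was at -0.15 (-0.08 without AI992). The 4 other transcripts with a terminal oligopyrimidine tract each had a lower mean in inseminated sows (median -0.08), though TPT1 was only at -0.0079 and NACA at -0.0095. HNRNPA1, a splicing regulator, was at -0.16 (standard error 0.18) and the cyclin CCNG1 at -0.14 (standard error 0.22). These moved with single sows, HNRNPA1 between -0.33 (without AI1061) and -0.07 (without AI696) and CCNG1 between -0.28 (without AI1061) and -0.02 (without AI1059).

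Factors of ribosome assembly were 3 higher and 7 lower, with a median of -0.04, TSR1 of 40S maturation at -0.10 and PES1 of 60S maturation at 0.08. Without AI1061 PES1 was at 0.0035. The 7 mitochondrial ribosomal proteins, which serve a separate ribosome, were 2 higher and 5 lower with a median of -0.08, MRPL18 at -0.17 (-0.27 without AI1059, -0.11 without AI837) and MRPS11 at 0.11 (0.04 without AI1061). In the TOR and S6 kinase pathway 3 were higher and 3 lower, with the S6 kinase RPS6KB1 at 0.14 (standard error 0.12; 0.09 without AI1061). PDPK1, which activates such kinases, differed by 0.61 (standard error 0.59) at a level of 6.03, below the array median as TSR1 was, and by 0.27 without AI993. None of the genes of these lists passed in limma after adjustment over all genes (0.0% of all genes did), and EIF2B5 and B2M were those with an unadjusted p under 0.05.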

How the data were processed

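Spot intensities of the 10 arrays were corrected by the authors with the normexp method (offset 10) and brought to a common distribution by quantiles. The table they deposited holds log2 intensities, which were used unchanged. Control spots are not marked in the table. Samples with an RNA integrity number above 7 were used, per the labels. Symbols came from the platform annotation, updated by accession for 6055 features (446 symbols changed, among them 14 RPS4 features to RPS4X). Coordinates and sequences are not given.

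Models for genes (mean over features) and for features came from lmFit and eBayes of limma 3.58.1 (R 4.3.3), with Benjamini-Hochberg adjustment over all; single genes by exact permutation over 252 labellings, in Python 3.11.15. The smallest possible p is 0.00794. All standard errors and intervals given are the moderated ones of eBayes. The fit was checked on simulated arrays. Each array is a separate sow, the number of arrays limits precision, and no batch is labelled. Surgery day was not used here.

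Genes named were the 6 largest differences each way, the 6 smallest p, 5 highest and 5 lowest levels, 5 smallest and 5 largest SDs, the 4 widest feature ranges, paralogs and their parents, reference genes, and up to 4 per related list; RPL5, RPS12, RPS26 and other members given for their features were chosen after their values were seen. The members and lists were chosen with earlier results of these data known. Alternatives were another quantile normalization, centring, filters on dim and near-16 features, trended robust variance, array weights, the brightest feature or the median over features, annotated symbols, core proteins alone, and leaving out each sow.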

Additional observations from a re-analysis of the deposited data

Results flagged for a closer look

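In 56 groups of 5 sows (28 results, gene means in each group) 9 had 1 sow far from the other 4 by Dixon's criterion, and chance alone flags about 1 in 20 such groups. RPL12 was highest at 12.67 in inseminated sow AI1059 (the nearest sow read 12.40) and at 12.61 in non-inseminated sow AI992 (nearest 12.35). RPS6 was highest at 14.85 in AI992 (nearest 14.61) and RPS26 at 13.19 in AI1061 (nearest 12.99). The other 5 were low values close to the highest array value. RPL19 read 15.67 in AI943 (nearest 15.89), RPS20 15.67 in AI943 (nearest 15.89) and 15.79 in AI1061 (nearest 15.93), RPL8 15.72 in AI1059 (nearest 15.90) and RPL35 15.64 in AI1061 (nearest 15.85).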

How the results depend on the processing

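No paired analysis was possible because the labels carry no replicate numbers and every array is a different sow. The count of 0 members after adjustment held under every alternative run. At an unadjusted p under 0.05 there was 1 member with array weights and a range of 0 to 1 when a sow was left out (RPS4X, without AI1061). The share of all genes under these settings is not given here. Member features at that threshold numbered 1 with a trended robust variance (0.53%, against 3.27% of all features) and 11 with array weights (5.88%, against 5.70%). When a sow was left out they numbered 0 to 12, the 12 without AI1061 (6.42%, against 7.00% of all features). The median difference was -0.00024 with the brightest feature of each gene, and -0.05 to -0.01 when a sow was left out. Features within 0.5 of 16 in a sow numbered 91. With the brightest feature the sign turned in RPL12 (-0.0056), RPL36AL (-0.0018), RPS10 (0.038) and RPL26L1 (0.085), with the median over features in RPL12 (-0.050), without features near 16 in RPL11 (-0.012), and with array weights in RPL26L1 (0.026) and RPL32 (-0.017). Leaving out a sow gave -0.028 to 0.11 for RPL36AL, -0.038 to 0.069 for RPL11, -0.042 to 0.025 for RPL26L1 and -0.042 to 0.060 for RPL32. The cause was not tested. The sign never turned in the other 11 of 17 members with a printed difference. The permutation p of RPS4X ran from 0.0159 to 0.0794 when a sow was left out, that of RPS3A from 0.00794 to 0.0635 and that of RPL19 from 0.0159 to 0.135. Compression near 16 and the number of arrays limit what could be seen.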
